A study of Caenorhabditis elegans with 8 samples.

Results

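The genes described here encode the proteins of the cytosolic ribosome of *Caenorhabditis elegans*. They were taken by name, as every gene of the table whose symbol begins with rpl- or rps-, together with *rla-0*, *rla-1*, *rla-2* and *ubl-1*, which gave 82 of the 17521 genes measured. Of these, 47 are named for the large subunit, 32 for the small subunit with *ubl-1* counted among them, and 3 for the acidic stalk of the large subunit. RNA was sequenced from whole N2 hermaphrodites, the Bristol wild-type strain, grown on *E. coli* OP50. The atracurium group (4 samples) received 50 μM atracurium besylate, a blocker of the acetylcholine receptor of muscle, and the water group (4 samples) received the vehicle. Both groups were treated for 24 h, from the last larval stage to day 1 of adulthood, on plates that all carried 5-fluorouracil, which stops the growth of progeny. Each sample pooled about 1000 animals, so a value is a mean over all tissues of a worm, and fewer cells of a type and less RNA per cell cannot be told apart. The comparison asks which transcripts differ in worms given a drug that was studied for its effect on lifespan.

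A ribosome translates messenger RNA into protein. Its small subunit reads the message, its large subunit joins the amino acids, and most proteins of either subunit are present in equal number in the finished particle, so the genes for these proteins are usually expressed together and at high levels. In worms, ribosomal protein genes are active in all tissues and most strongly in growing cells and in the germ line, and lowering translation is known to lengthen the worm's life. The small proteins of the ribosome are encoded by some of the shortest messages of the genome. The 82 genes had a median exonic length of 532 nt, against 1277 nt over all genes. They lie on all 6 chromosomes, with 25 on chromosome I, 19 on III, 18 on IV, 10 on II, 8 on V and 2 on X.

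Between 30836643 and 35947045 reads fell on the genes of the table in the atracurium samples, and between 27922986 and 60015200 in the water samples. Markers of sperm, oocytes, germ line, intestine, body wall muscle, pharynx, hypodermis and neurons were all detected, and only the sperm list held genes with no read in some sample (*msp-42*, *msp-74* and *spe-42*). No pair of libraries agreed within sampling noise, so none was counted as a duplicate. The samples were grown as separate sets of worms, but the sources used here do not say whether from separately started cultures, and p-values then measure the spread between these samples, which may be technical.

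Ribosomal protein transcripts took a large part of each library. They received 7.70%, 6.05%, 7.86% and 9.20% of the reads in atracurium replicates 1 to 4, against 8.91%, 8.37%, 8.71% and 8.97% in water replicates 1 to 4. The means were 7.70 ± 1.29% with atracurium and 8.74 ± 0.27% with water (SD, n = 4 each). The groups overlapped, because atracurium replicate 4 had the highest share of all 8 samples while atracurium replicate 2 had the lowest. The difference of the means was −1.04 percentage points, and it was −0.49 without atracurium replicate 2 and −1.54 without atracurium replicate 4.

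**Figure D1:**
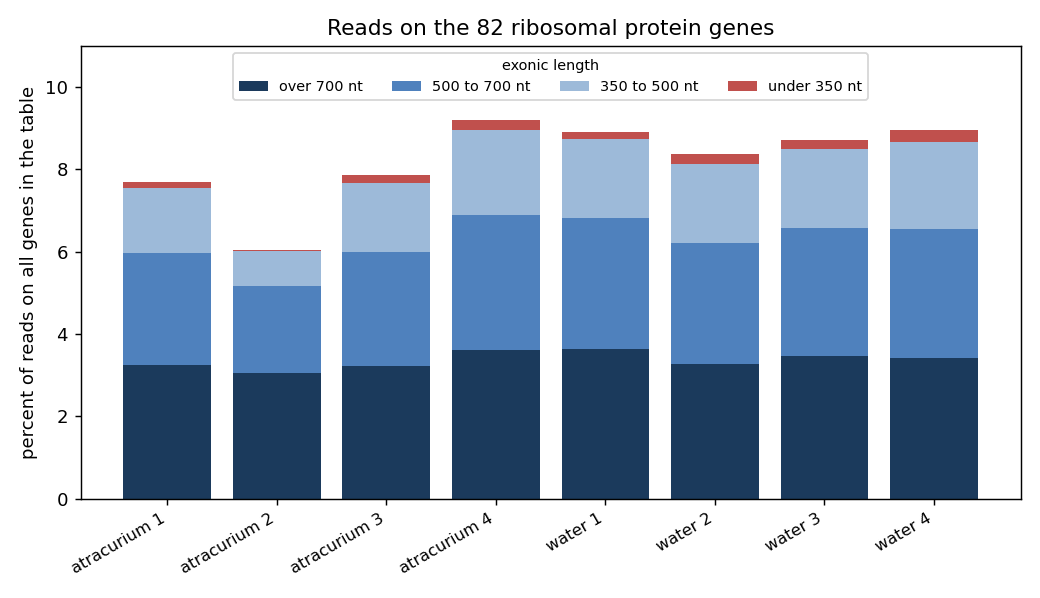
Share of reads on the 82 ribosomal protein genes in each sample (percent of reads on all genes in the table), stacked by exonic length class. The bars run between 6.05% and 9.20% in the atracurium samples and between 8.37% and 8.97% in the water samples, and the red band of the genes under 350 nt is thinnest in atracurium replicate 2.

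Gene by gene, nearly all ribosomal protein transcripts were lower on average in atracurium-treated worms, and none passed the test. The log2 fold change, atracurium over water, was negative for 80 genes and positive for 2 (*rpl-3* and *rpl-7A*). Its median was −0.28, or 0.825-fold, against −0.01 over all 17521 genes, and it ran from −0.94 for *rps-28* to 0.03 for *rpl-3*. In the limma-trend fit across all genes, 0 of the 82 passed an adjusted p of 0.05, where 0.177% of all genes did, and the smallest adjusted p among them was 0.325, for *rps-15*. At an unadjusted p under 0.01 the fit called 0 of 82 lower, against 1.87% of all genes, and 0 of 82 higher, against 1.2%. At an unadjusted p under 0.05, 5 of 82 were lower (*rps-15*, *rpl-21*, *rpl-25.2*, *rpl-24.2* and *rpl-27*), which is close to the 6.63% of all genes that were lower at that level. This count depended on the samples, and without atracurium replicate 4 it was 61 of 82, against 9.77% of all genes. On the values alone, 1 of 82 had all 4 atracurium samples below all 4 water samples, against 3.75% of all genes, and 0 of 82 had them all above, against 3.41%.

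The gene whose groups did not overlap was *rps-15*, singled out here after its values were seen. It encodes S15, a small subunit protein near the decoding site, and lies on chromosome I at 8815572 to 8816193 (WBcel235, Ensembl), with 492 nt of exons. It was measured at 9.96, 9.32, 9.99 and 10.06 log2 CPM in atracurium replicates 1 to 4, against 10.17, 10.31, 10.21 and 10.20 in water replicates 1 to 4. CPM is reads divided by the library's total, counted in units of 1000000, after the normalization of library sizes. The 4 water values lie within a narrow range, and the highest atracurium value comes just short of it. The log2 fold change was −0.39 ± 0.13 (SE), with an adjusted p of 0.325 by limma. It was −0.22 without atracurium replicate 2, where *rps-15* was the 1 gene of the 82 lower at an unadjusted p under 0.01, against 2.15% of all genes (limma, adjusted p = 0.137), and −0.05 after the trend of the values with gene length was removed (limma, adjusted p = 0.834).

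The samples of the atracurium group did not move as one. Taken over the 82 genes, the median deviation from the mean of the water samples was −0.18, −0.86, −0.18 and 0.12 on the log2 scale in atracurium replicates 1 to 4, against 0.02, −0.10, 0.00 and 0.05 in water replicates 1 to 4. Over all genes it stayed between −0.01 and 0.01 in every sample. Atracurium replicate 2 was the lowest of the 8 samples for 73 of the 82 genes. Atracurium replicate 4 was the highest of the 8 for 40 genes, water replicate 4 for 24 and water replicate 1 for 12. Below all 4 water samples lay 52, 75, 49 and 2 of the 82 genes in atracurium replicates 1, 2, 3 and 4, and above all 4 lay 0, 0, 1 and 40. So 3 atracurium samples lay under the water samples for most or many of these genes, and the remaining one lay over them for many. The same counts were not taken over all genes, so they describe the 82 genes without a background to read them against.

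Leaving out one or the other of these samples moved the result in opposite directions. Without atracurium replicate 2 the median log2 fold change was −0.08, with 70 of the 82 values negative. Without atracurium replicate 4 it was −0.41 with all 82 negative, and 14 of 82 were lower at an unadjusted p under 0.01 by limma, against 2.65% of all genes in the same fit. These 14 were *rpl-10*, *rpl-11.1*, *rpl-14*, *rpl-21*, *rpl-24.1*, *rpl-24.2*, *rpl-25.2*, *rpl-27*, *rpl-35*, *rps-7*, *rps-15*, *rps-16*, *rps-23* and *rps-24*, none of them among the 6 genes with the lowest fold changes. In those 7 samples, 39 of the 82 genes had all atracurium values below all water values, against 8.25% of all genes. No gene of the 82 passed an adjusted p of 0.05 in either fit.

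The size of the difference followed the length of the transcript closely. Among the 11 genes under 350 nt the median log2 fold change was −0.85, among the 24 genes between 350 and 500 nt it was −0.41, among the 26 between 500 and 700 nt it was −0.18, and among the 21 above 700 nt it was −0.05. Across the 82 genes Spearman's rho of fold change and exonic length was 0.94, and across the 17493 genes with a length it was 0.42. Without atracurium replicate 2 these were 0.76 and 0.29. The fold change also followed the mean log2 CPM, with a rho of 0.79 across the 82 genes and 0.20 across all genes with a length. The genes share libraries, and among the ribosomal genes longer ones also had more reads (rho of level and length 0.76). Length and level were not separated, and all these values are descriptions across genes.

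The gradient was also looked at sample by sample, always against the mean of the water samples. In the genes under 350 nt the median deviation from the water mean was −0.63, −2.67, −0.29 and 0.25 in atracurium replicates 1 to 4, against −0.37, 0.01, −0.22 and 0.43 in water replicates 1 to 4. Atracurium replicate 2 thus stood far below every other sample for the shortest genes, and water replicate 4 stood above the other water samples. In the genes above 700 nt it was −0.03, −0.21, −0.08 and 0.11 with atracurium, against 0.10, −0.11, 0.02 and 0.01 with water, so that the long ribosomal genes differed less between samples than the shortest ones. Across the 82 genes, Spearman's rho of the deviation and exonic length was 0.90, 0.94, 0.70 and −0.18 in the atracurium samples, and 0.78, −0.42, 0.62 and −0.80 in the water samples. Over all genes the same rho was 0.34, 0.44, 0.24 and 0.05 with atracurium and 0.11, −0.23, 0.05 and 0.06 with water. The relation among the 82 genes was closest in atracurium replicate 2. The water deviations of each gene sum to 0, since they were taken from the water mean, so that signs of both kinds among the water samples follow from the way they were computed. The atracurium deviations were taken from that same mean, so the rho values of the atracurium samples share it and are not separate readings.

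**Figure D2:**
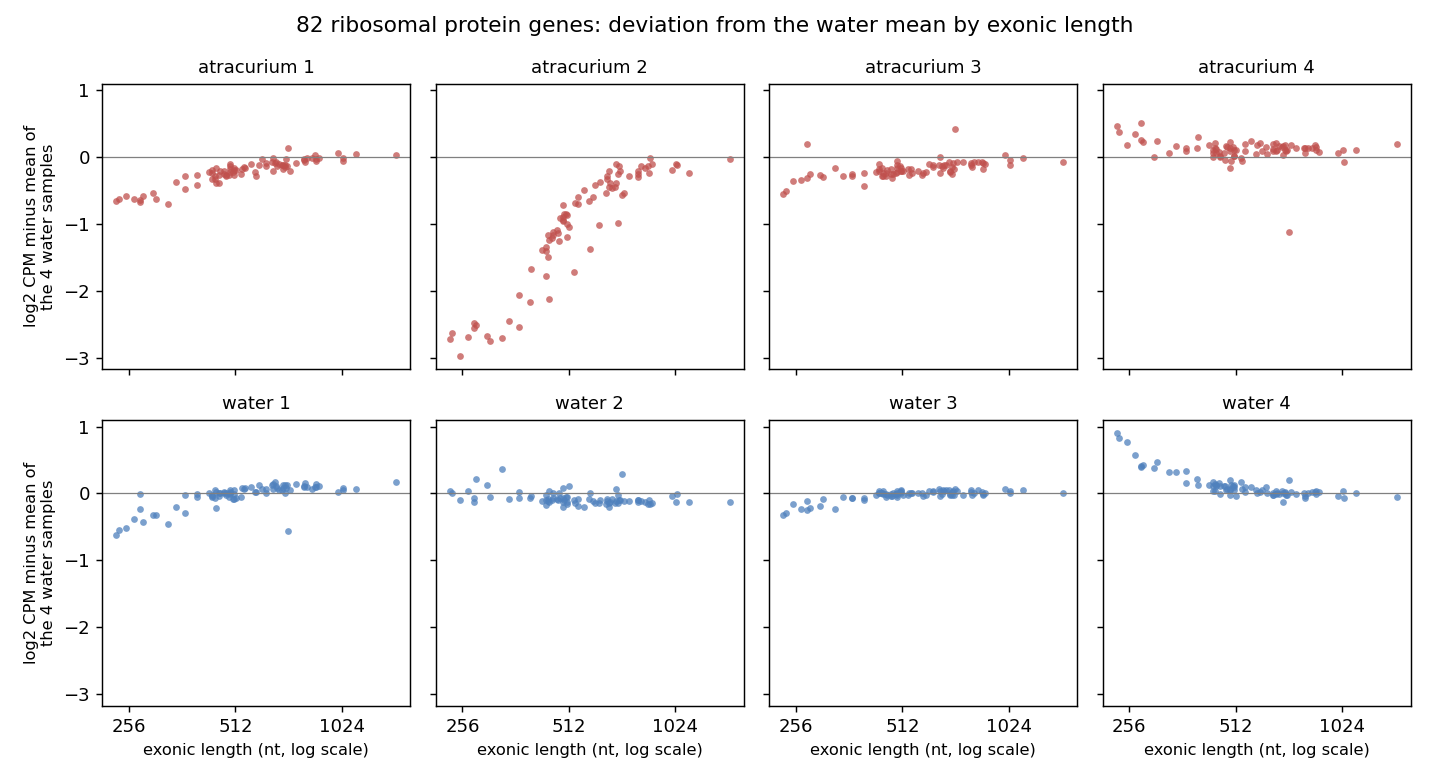
Deviation of each of the 82 genes from the mean of the 4 water samples (log2 CPM) against its exonic length (nt, log axis), 1 panel a sample, atracurium above and water below. In atracurium replicate 2 the points climb from a median of −2.67 under 350 nt to −0.21 above 700 nt, while in water replicate 4 they come down from 0.43 to 0.01.

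When the trend of each sample with length, estimated on all genes, was taken out, the median log2 fold change of the 82 genes was −0.01, with 44 values negative and 38 positive and a range of −0.46 to 0.14, and 0 of 82 passed an unadjusted p under 0.01 by limma in either direction. The class under 350 nt still had a median of −0.38, and the 3 longer classes had −0.05, 0.04 and 0.04. Among the 82 genes the fold change kept a rho of 0.65 with length, where over all genes it was −0.01, so the trend shared by all genes left part of the gradient among the ribosomal genes in place. With the trend estimated only from other genes above a mean log2 CPM of 8, a setting chosen after seeing the data, the median was −0.12. RNA integrity and fragment size per sample were not given in the sources used here, and their part in the gradient was not tested.

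**Figure D3:**
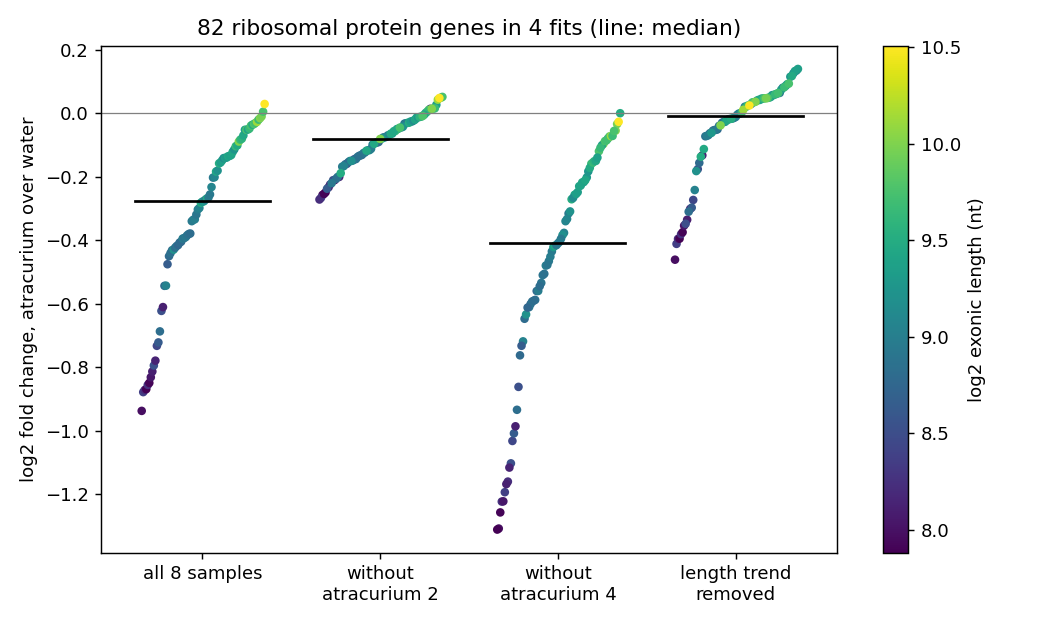
Log2 fold change, atracurium over water, of the 82 genes in 4 fits, each point a gene in rank order and coloured by log2 exonic length, with the median as a line. The medians are −0.28 with all samples, −0.08 without atracurium replicate 2, −0.41 without atracurium replicate 4 and −0.01 with the length trend removed, and the genes under 350 nt (darkest) have medians of −0.85 with all samples, −0.23 without atracurium replicate 2 and −0.38 with the length trend removed.

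The large and the small subunit gave near values. The median log2 fold change was −0.28 over the 47 large subunit genes and −0.27 over the 32 small subunit genes. The median deviation of the large subunit genes was −0.18, −0.69, −0.18 and 0.13 in atracurium replicates 1 to 4, against 0.02, −0.10, −0.01 and 0.06 in the water samples, and that of the small subunit genes was −0.17, −0.88, −0.18 and 0.13 with atracurium, against 0.02, −0.09, 0.00 and 0.04 with water. In both, atracurium replicate 2 was the lowest and atracurium replicate 4 the highest of the 8 samples.

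Of the large subunit, the genes with the lowest fold changes encode some of its smallest proteins. *rpl-41.1*, for the tiny basic protein L41, was measured at 3.74, 1.73, 4.28 and 4.51 log2 CPM in the atracurium samples, against 3.99, 4.81, 4.21 and 4.77 in the water samples, and its log2 fold change was −0.88 ± 0.47 (SE; limma, adjusted p = 0.475). *rpl-38* (L38, which in mice is needed for the translation of a set of Hox messages) had 7.69, 5.57, 7.97 and 8.23 log2 CPM with atracurium, against 7.92, 8.36, 8.05 and 8.62 with water, a log2 fold change of −0.87 ± 0.44 (SE; limma, adjusted p = 0.459). *rpl-39* (L39, a protein of the exit tunnel for the growing chain; chromosome V at 7775742 to 7776079) had 4.94, 2.87, 5.05 and 6.06 log2 CPM with atracurium, against 4.98, 5.64, 5.28 and 6.5 with water. In each of the 3 genes the groups overlapped and atracurium replicate 2 lay more than 2 log2 units under any other sample. For *rpl-39* the log2 fold change was −0.87 ± 0.52 (SE; limma, adjusted p = 0.514), and without atracurium replicate 2 it was −0.25. *rpl-29* (L29) followed with 5.41, 3.4, 5.53 and 6.41 log2 CPM in the atracurium samples, against 5.49, 6.05, 5.74 and 6.86 in the water samples, a log2 fold change of −0.85. Water replicate 4 was the highest sample for *rpl-29*, *rpl-38* and *rpl-39*.

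At the other end stood large subunit genes with long transcripts. *rpl-3* encodes L3, a core protein at the centre where peptide bonds form, and with 1456 nt was the longest of the 82. It was measured at 11.59, 11.54, 11.49 and 11.76 log2 CPM in the atracurium samples, against 11.74, 11.43, 11.58 and 11.52 in the water samples, a log2 fold change of 0.03 ± 0.08 (SE; limma, adjusted p = 0.909). The values of the groups ran through each other. *rpl-7A* (L7a) had a log2 fold change of 0.00, *rpl-5* (L5, which binds the 5S ribosomal RNA) one of −0.02 and *rpl-4* (L4, which lines the exit tunnel) one of −0.03. These 4 genes spread by at most 0.15 (SD of log2 CPM) in either group. Under other scalings the sign of such small values turned: with the medians of the samples set equal, which raised the median of all genes by 0.06 in log2 fold change, *rpl-4* had 0.04 and *rpl-5* had 0.05.

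In the small subunit the pattern was the same. *rps-28*, for S28, had the lowest log2 fold change of all 82 genes and one of the largest spreads between samples. This gene of 252 nt lies on chromosome IV at 1659691 to 1659997. It had 5.77, 3.38, 6.0 and 6.53 log2 CPM in the atracurium samples, against 5.84, 6.26, 6.20 and 7.13 in the water samples. The log2 fold change was −0.94 ± 0.52 (SE), or 0.522-fold, with an adjusted p of 0.49 by limma. Without atracurium replicate 2 it was −0.26. *rps-21*, for S21, had 7.30, 5.18, 7.63 and 8.17 log2 CPM with atracurium, against 7.6, 7.88, 7.84 and 8.39 with water, a log2 fold change of −0.86. In both genes atracurium replicate 2 was the lowest sample by more than 2 log2 units, and water replicate 4 the highest. *rps-2*, for S2, a protein of the channel through which the message enters, was measured at 10.30, 10.05, 10.27 and 10.30 log2 CPM with atracurium, against 10.25, 10.20, 10.31 and 10.20 with water. Even here atracurium replicate 2 was the lowest sample, by a small margin. *rps-6* encodes S6, the protein that S6 kinase phosphorylates, and its log2 fold change was −0.02 ± 0.07 (SE; limma, adjusted p = 0.924).

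**Figure D4:**
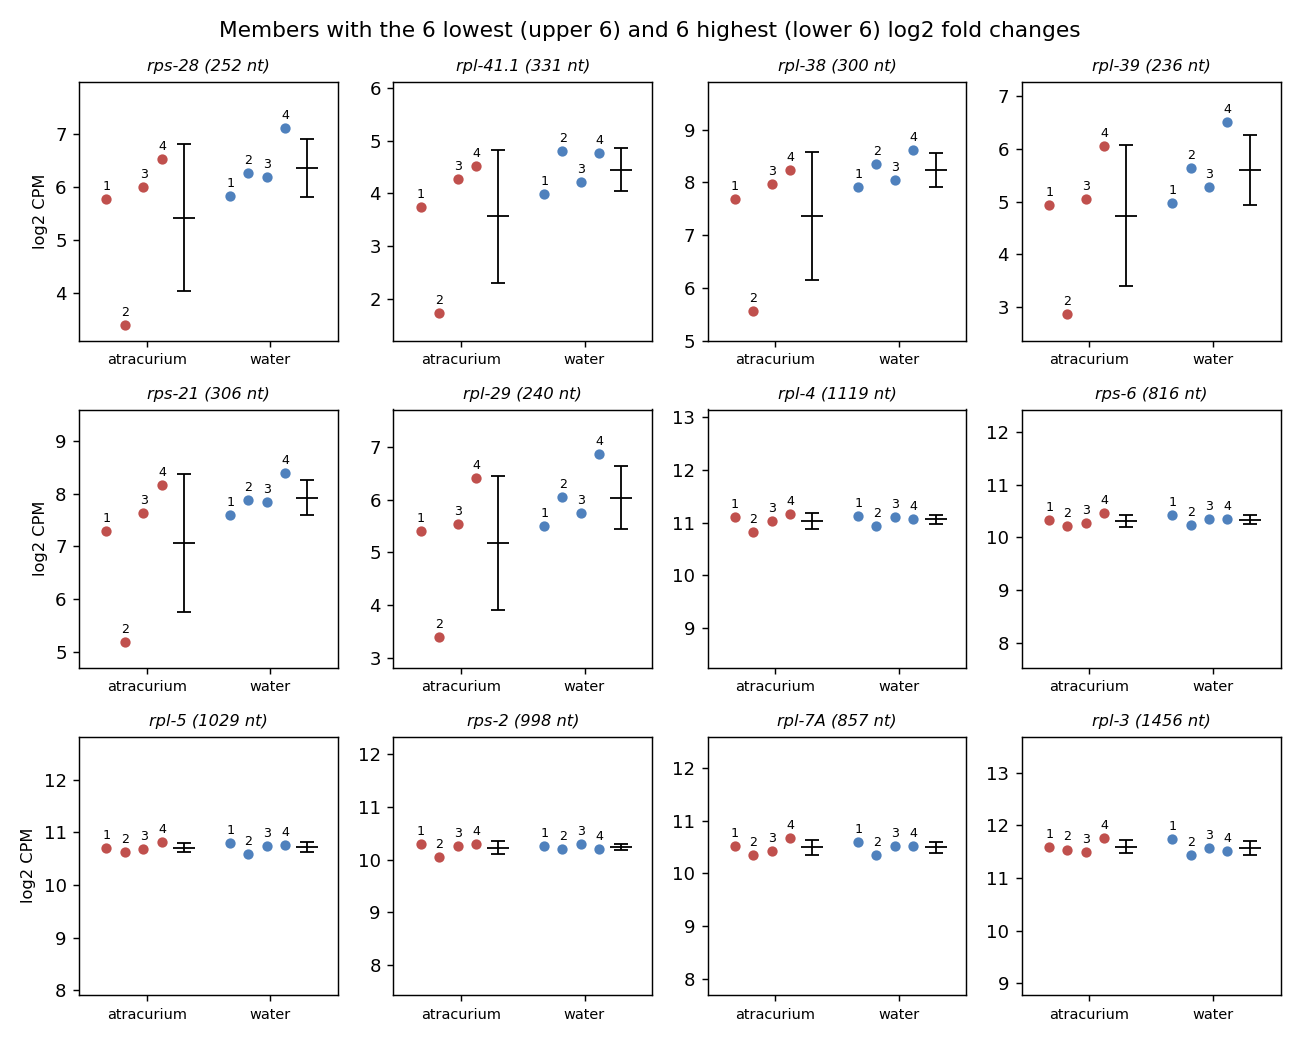
Log2 CPM of the 6 genes with the lowest and the 6 with the highest log2 fold change, by sample, atracurium on the left and water on the right of each panel; digits are replicate numbers, bars the mean and SD (n = 4), and each panel spans the same number of log2 units. In the 6 short genes atracurium replicate 2 lies apart from the other 3 (3.38 in *rps-28*, where they had 5.77 to 6.53), and in the 6 long genes all samples lie close together.

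The stalk is the flexible arm of the large subunit that recruits elongation factors, built on P0 with P1 and P2 attached. *rla-0*, which encodes P0, was measured at 11.75, 11.70, 11.69 and 11.74 log2 CPM in the atracurium samples, against 11.86, 11.80, 11.85 and 11.74 in the water samples. The groups met only at water replicate 4, and the log2 fold change was −0.09 ± 0.06 (SE; limma, adjusted p = 0.564). *rla-1*, for P1, had 9.62, 8.51, 9.76 and 9.92 log2 CPM with atracurium, against 9.81, 9.83, 9.90 and 9.89 with water. *rla-2* had 8.09, 6.35, 8.19 and 8.53 log2 CPM with atracurium, against 8.26, 8.52, 8.51 and 8.60 with water. Again atracurium replicate 2 was by far the lowest for the shorter messages of 441 nt (*rla-1*) and 451 nt (*rla-2*), and within the other samples for that of 1033 nt (*rla-0*). The log2 fold changes were −0.40 for *rla-1* and −0.69 for *rla-2*, and −0.09 and −0.21 without that sample. *ubl-1*, which encodes the small subunit protein S27a fused to a ubiquitin-like protein, had 9.46, 9.07, 9.36 and 9.80 log2 CPM with atracurium, against 9.67, 9.37, 9.56 and 9.65 with water. Atracurium samples were both the lowest and the highest for *ubl-1*, and its log2 fold change was −0.14 ± 0.12 (SE; limma, adjusted p = 0.653).

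Per unit of length these genes belonged to the most abundant of the worm. CPM divided by the exonic length in kilobases (RPKM) were highest for *rpl-23* (L23, on the face of the large subunit that meets the small one), with 3253 ± 1081 in the atracurium samples and 4071 ± 265 in the water samples (SD, n = 4 each), which put it 3rd among all genes with a length. *rps-23* (S23, close to the decoding site) was 4th with 3102 ± 889 RPKM with atracurium and 3746 ± 144 with water. *rla-0* was 5th with 3272 ± 69.5 RPKM with atracurium and 3483 ± 132 with water, and *rps-25* (S25) was 7th with 2655 ± 1242 with atracurium and 3313 ± 197 with water. The spread of the atracurium group was many times that of the water group for all of these but *rla-0*, and in each the groups overlapped. The 2 lowest were of another order. *rpl-42* had 8, 4, 9 and 2 reads in the atracurium samples and 4, 16, 6 and 7 in the water samples, and *rpl-37* had 34, 8, 57 and 74 reads with atracurium and 53, 89, 37 and 61 with water. At this depth no difference was detectable in either, and their fitted fold changes depend on the prior count.

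Several proteins are encoded by more than one gene of the set. L11 is made from *rpl-11.1* and *rpl-11.2*, and *rpl-11.1* gave 2329 ± 400.3 RPKM in the atracurium samples and 2547 ± 179 in the water samples (SD, n = 4 each), while *rpl-11.2* gave 413 ± 84.1 RPKM with atracurium and 454 ± 23.8 with water. The ratio of the pair was 5.58, 6.53, 5.00 and 5.68 in atracurium replicates 1 to 4, against 5.99, 5.76, 5.28 and 5.42 in water replicates 1 to 4. The annotation names *rpl-25.1* and *rpl-25.2* as the genes of L23a, and the ratio of *rpl-25.2* to *rpl-25.1* was 8.46 ± 0.88 with atracurium and 8.93 ± 0.48 with water. That of *rpl-41.2* to *rpl-41.1*, neighbours on chromosome I that both encode L41, was 16.9 ± 1.49 with atracurium and 15.7 ± 1.12 with water. In all 3 pairs one copy dominated in every sample, and no difference of the ratio between groups was detected in an exact permutation test over samples (two-sided p = 0.857, 0.371 and 0.257 in this order, adjusted over the 3 pairs 0.857, 0.557 and 0.557; the smallest p that 4 against 4 samples allow is 0.0286). The differences of the log2 ratio were 0.02, −0.08 and 0.10. Reads that fit both copies of a pair could not be assigned to one, so the levels of paralogs are uncertain to that extent.

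Names that share a number are not always paralogs. *rpl-24.1* encodes L24, but *rpl-24.2* is annotated as the biogenesis factor RLP24, which holds the place of L24 in the maturing particle. *rpl-24.1* had 2108 ± 473 RPKM with atracurium and 2386 ± 212 with water, and *rpl-24.2* had 112 ± 21.7 RPKM with atracurium and 134 ± 5.28 with water. Their log2 fold changes were −0.20 ± 0.13 (SE) and −0.28 ± 0.11 (SE), with adjusted p of 0.545 and 0.392 by limma. Likewise *rpl-7* and *rpl-7A* encode the different proteins L7 and L7a, with log2 fold changes of −0.10 and 0.00. *rpl-36* (L36) and *rpl-36.A* had −0.73 ± 0.42 (SE) and −0.72 ± 0.36 (SE), and for both genes atracurium replicate 2 lay lowest, at 6.96 and 7.55 log2 CPM.

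Some ribosomal proteins are encoded by genes whose names the choice by symbol did not reach. *ubq-2*, a fusion of ubiquitin and L40 of 435 nt, was measured at 9.47, 8.50, 9.45 and 9.86 log2 CPM in the atracurium samples, against 9.64, 9.62, 9.77 and 9.90 in the water samples. *rack-1*, the scaffold on the head of the small subunit, with 1076 nt, had 10.81, 10.77, 10.75 and 10.89 with atracurium, against 10.90, 10.73, 10.86 and 10.79 with water. The short gene showed the low value of atracurium replicate 2 and the long gene did not. The log2 fold changes were −0.41 ± 0.21 (SE; limma, adjusted p = 0.463) for *ubq-2* and −0.01 ± 0.06 (SE; limma, adjusted p = 0.941) for *rack-1*. The annotation also gives *W01D2.1* as a gene of L37 and *C37A2.7* as one of P2, both picked out after the annotation and values were seen. *W01D2.1* reached 612 ± 346 RPKM with atracurium and 946 ± 190 with water, where *rpl-37*, annotated for the same protein, had 4.83 ± 3.30 RPKM with atracurium and 5.83 ± 1.24 with water. The log2 fold changes were −0.90 ± 0.43 (SE; limma, adjusted p = 0.447) for *W01D2.1*, of 323 nt, and −0.68 ± 0.34 (SE; limma, adjusted p = 0.460) for *C37A2.7*, of 449 nt.

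The rest of the translation machinery, whose messages are longer, had medians a little above 0. Of 38 initiation factors 17 had negative and 21 positive log2 fold changes with a median of 0.01 and 0 calls at an unadjusted p under 0.01, and of 10 elongation and release factors 3 were negative and 7 positive with a median of 0.05 and 0 calls. The elongation factors *eef-1A.1*, which brings charged tRNAs to the ribosome, and *eef-2*, which moves it along the message, had log2 fold changes of 0.05 ± 0.08 (SE) and 0.08 ± 0.07 (SE). The smallest p values of these lists belonged to *eif-2Bepsilon* (a subunit of the exchange factor for eIF2), with a log2 fold change of 0.21, *iff-2* (eIF5A), with −0.12, *tct-1* (the translationally controlled tumor protein), with −0.17, and the release factor *erfa-3*, with 0.07. No gene of any of the translation lists passed an adjusted p of 0.05 in limma. Among 33 aminoacyl-tRNA synthetases, which charge tRNAs, 9 were negative and 24 positive, with a median of 0.05. None was called at an unadjusted p under 0.01, and *aars-2* (for alanine) and *ears-1* (for glutamate) had log2 fold changes of 0.15 and 0.14.

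Genes that build ribosomes were likewise centred on 0. Of 34 ribosome biogenesis genes 13 were negative and 21 positive, with a median of 0.02 and 0 calls at an unadjusted p under 0.01. *fib-1*, for the nucleolar methyltransferase fibrillarin, averaged 10.05 ± 0.05 log2 CPM in the atracurium samples and 10.05 ± 0.03 in the water samples (SD, n = 4 each), and the groups overlapped. *dao-5*, for a nucleolar protein, had a log2 fold change of 0.17 ± 0.07 (SE; limma, adjusted p = 0.380) and *nol-16* one of −0.22 ± 0.08 (SE; limma, adjusted p = 0.345). Of 11 subunits of RNA polymerases I and III, which make ribosomal and transfer RNA, 5 were negative and 6 positive, with a median of 0.01. Of these, 1 was called lower at an unadjusted p under 0.01 (1.87% of all genes), *rpac-19*, with 6.34, 5.99, 6.37 and 6.25 log2 CPM with atracurium, against 6.46, 6.87, 6.49 and 6.45 with water. All 4 atracurium values lay below all water values, and the log2 fold change was −0.33 ± 0.10 (SE; limma, adjusted p = 0.310). This gene has 545 nt, and its value was −0.04 once the length trend was removed. *rpc-11*, of 430 nt, had a log2 fold change of −0.60 ± 0.25 (SE; limma, adjusted p = 0.392), again with groups that did not overlap.

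The 71 mitochondrial ribosomal proteins, which make up the separate ribosome of that organelle, also had mostly negative values. Of these, 64 had negative and 7 positive log2 fold changes, the median was −0.11 and their median length was 763 nt. In 8 of the 71 all atracurium samples lay below all water samples, against 3.75% of all genes. At an unadjusted p under 0.01, 2 of 71 were lower, near the 1.87% of all genes. *mrps-18B* had 6.21, 6.24, 6.29 and 6.24 log2 CPM with atracurium, against 6.42, 6.72, 6.43 and 6.38 with water (log2 fold change −0.24 ± 0.07, SE; limma, adjusted p = 0.301). *mrps-33*, of 506 nt, had 4.65, 3.69, 4.81 and 4.65 with atracurium, against 4.90, 5.56, 5.09 and 4.90 with water (log2 fold change −0.66 ± 0.22, SE; limma, adjusted p = 0.323). With the length trend removed the median of the 71 was −0.01. The 2 named genes kept lower values in that fit, −0.15 for *mrps-18B* and −0.34 for *mrps-33* (limma, unadjusted p = 0.0367 and 0.00699).

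Regulators of translation and of ribosome production, from long messages with a median of 3005 nt, leaned the other way. Of 22, 4 were negative and 18 positive, with a median log2 fold change of 0.09 that became 0.01 without the length trend. *pek-1*, the kinase that slows initiation when proteins misfold in the endoplasmic reticulum, was the 1 of 22 called higher at an unadjusted p under 0.01 (1.2% of all genes), with 6.42, 6.53, 6.35 and 6.34 log2 CPM in the atracurium samples, against 6.21, 6.16, 6.24 and 6.22 in the water samples. Every atracurium value exceeded every water value, and the log2 fold change was 0.20 ± 0.06 (SE; limma, adjusted p = 0.292). With the length trend removed, that of *pek-1* was 0.11 (limma, unadjusted p = 0.0687). *aak-2*, a catalytic subunit of AMP-activated kinase, had a log2 fold change of 0.15 ± 0.07 (SE; limma, adjusted p = 0.439). The genes of the TOR pathway, which drives ribosome production in growing cells, gave 0.10 ± 0.06 (SE) for *let-363* (TOR kinase), 0.12 ± 0.06 (SE) for *daf-15* (Raptor) and 0.08 ± 0.07 (SE) for *rsks-1* (S6 kinase), with adjusted p of 0.519, 0.472 and 0.635 by limma. *ncl-1*, which in the worm limits the size of the nucleolus and ribosomal RNA, had 5.83, 5.79, 5.74 and 4.99 log2 CPM with atracurium, against 5.07, 5.37, 5.44 and 5.58 with water. Atracurium replicate 4 was the lowest sample for *ncl-1*, while it was the highest for 40 of the 82 ribosomal protein genes.

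Markers of some tissues also differed between the groups. The 35 sperm genes, most of them for the major sperm protein, had a median length of 384 nt. Their summed level was 123, 83.9, 143 and 181 CPM in atracurium replicates 1 to 4, against 225, 211, 208 and 186 CPM in water replicates 1 to 4. The groups did not overlap. Within the atracurium group the order was that of the ribosomal share, replicates 2, 1, 3 and 4 from low to high. Between the groups and among the water samples the order differed. Atracurium replicate 4, highest of all in ribosomal share, lay below every water sample for sperm. Water replicate 4, highest of the water samples in ribosomal share, was their lowest for sperm. Of the 35 genes, 17 were lower at an unadjusted p under 0.01 by limma, against 1.87% of all genes, 0 passed an adjusted p of 0.05, and the median log2 fold change was −0.71. The length trend was not taken out of these sperm values, and reads that fit more than 1 of these genes could not be assigned. The summed level of 5 pharynx genes was between 118.8 and 129.9 CPM with atracurium and between 89.0 and 95.6 CPM with water. Of the 5, 2 passed an adjusted p of 0.05, against 0.177% of all genes, and the median log2 fold change was 0.46. The summed level of 6 body wall muscle genes was between 2740 and 3094 CPM with atracurium and between 2391 and 2735 CPM with water. Of the 6, 2 were higher at an unadjusted p under 0.01, against 1.2% of all genes. The 12 oocyte and embryo genes summed to between 12108 and 12927 CPM with atracurium and between 10932 and 11911 CPM with water, with 0 called in either direction at that level. The summed levels of the germ line, intestine, hypodermis, neuron and larval molt lists overlapped between the groups. The part of tissue make-up in the ribosomal values was not tested.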

How the data were processed

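RNA sequencing of 4 atracurium and 4 water samples was analysed, grouped by the treatment in their labels. The authors trimmed reads (Trimmomatic 0.32), aligned them to WBcel235 (HISAT2 2.1.0, Ensembl 91) and counted them per gene and strand (HTSeq 0.11.0). Genes needed over 2 counts in 3 or more samples to stay. The authors deposited log2 CPM, scaled by TMM (trimmed mean of M-values). The prior count averaged 2 reads.

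From these values whole reads were recovered, all within 0.1 of a whole number, which gave depth, shares and RPKM. Exonic lengths came from Ensembl 115 for 17493 genes and all 82 ribosomal protein genes. limma 3.58.1 in R 4.3.3 fitted a linear model of 2 groups to the values of all 17521 genes (limma-trend; two-sided, Benjamini-Hochberg). Calls were made at 0.05 for adjusted and at 0.01 for unadjusted p. No further filter was applied. Fold changes of genes with few reads are understated by the prior count. The length trend of each sample was removed with lowess (span 0.3) of its deviation from the gene's mean over samples on log2 exonic length. The fit was tested on simulated data in which all samples had the same spread, so that test does not cover a deviating sample. Other alternatives were limma-voom on the recovered reads, which the authors used, other moderation, prior count, scaling and filter, sample weights, a replicate block and each sample left out, with 3 further length corrections added after seeing the data.

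The members and lists were chosen with earlier results of these data known. Named were the 6 lowest and 6 highest fold changes, the 4 highest and 4 lowest levels per length, the 2 largest spreads, the stalk genes and *ubl-1*, genes that share a name stem, *ubq-2*, *rack-1*, the 2 smallest p values of each list and 7 translation genes; others are marked as chosen after their values were seen.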

Additional observations from a re-analysis of the deposited data

Results flagged for a closer look

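In 8 of the 54 named genes one sample lay far from the other 3 of its group (the gap to the nearest sample over the group's range was above Dixon's 95% critical value, which chance passes in about 1 in 20 groups). Atracurium replicate 2 was the low sample for *rps-2* at 10.05 log2 CPM, for *mrps-33* at 3.69 and for *rpc-11* at 2.02. Atracurium replicate 4 was the low sample for *ncl-1* at 4.99 log2 CPM. Water replicate 2 was the high sample for *mrps-18B* at 6.72 and *rpac-19* at 6.87 log2 CPM, and the low sample for *rpl-11.2* at 8.26. Water replicate 4 was the high sample for *rpl-36.A* at 9.94 log2 CPM. Over all 82 ribosomal protein genes, atracurium replicate 2 was such a sample in 5, water replicate 2 in 4 and water replicate 4 in 1. Each gene was examined in both groups, so these counts together are near the share that chance passes.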

How the results depend on the processing

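No ribosomal protein gene passed an adjusted p of 0.05 in any of the 22 fits, and none was higher at an unadjusted p under 0.01. The count of lower genes at that level, 0 with all samples, was 1 with limma-voom (2.01% of all genes), 3 with quantile normalization (1.52%), 6 with sample weights (3.37%), 2 with the length trend of abundant other genes (1.81%) and 0 to 14 when single samples were left out (2.65% of all genes where it was 14). At an unadjusted p under 0.05, where 5 were lower with all samples, 19 were lower with quantile normalization (5.47% of all genes), 30 with sample weights (8.93%) and 0 with the length trend removed (4.69%). The median log2 fold change of −0.28 became −0.01 with the length trend removed, 0.029 with it removed in the 7 samples without atracurium replicate 2, and −0.41 to −0.08 with single samples left out. The difference in the share of reads was −1.54 to −0.49 percentage points with single samples left out. The count of genes with atracurium values all below water values, 1, was 0 with the length trend removed and 1 to 39 with single samples left out (8.25% of all genes where it was 39).

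Over all genes, same-numbered samples did not deviate together (r of −0.057 to 0.036). Genes with few reads count in this r as much as others, so it cannot exclude that the numbers pair the samples. Among the 82 ribosomal protein genes the median deviation was lowest in replicate 2 and highest in replicate 4 of both groups. In the genes under 350 nt replicate 4 was again highest in both groups, but the lowest samples had different numbers. There atracurium replicate 2 was lowest at −2.67, while in the water group replicate 1 was lowest at −0.37 and replicate 2 had 0.01. With a replicate block the median stayed −0.28. In that fit 2 of the 82 genes (*rpl-21* and *rpl-25.2*) were lower at an unadjusted p under 0.01 in limma, against 1.54% of all genes. At an unadjusted p under 0.05, 36 were lower with the block, against 6.91% of all genes.

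Some values changed sign. With the length trend removed, the log2 fold changes were 0.051 for *rpl-11.1*, 0.086 for *rpl-24.1*, 0.080 for *rpl-25.1*, 0.010 for *rpl-4*, 0.036 for *rpl-5*, 0.0023 for *rpl-7*, 0.047 for *rps-2*, 0.028 for *rps-23*, 0.081 for *rps-6*, 0.13 for *ubl-1*, 0.029 for *rack-1*, 0.046 for *tct-1*, −0.0012 for *daf-15* and −0.026 for *let-363*. With equal sample medians they were 0.048 for *rack-1*, 0.036 for *rpl-4*, 0.047 for *rpl-5*, 0.053 for *rps-2* and 0.043 for *rps-6*, with quantile normalization −0.032 for *eef-2*, 0.061 for *rps-2* and 0.035 for *rps-6*, and with sample weights −0.0040 for *fib-1* and 0.012 for *rps-2*. With single samples left out they ran from −0.012 to 0.025 for *fib-1*, −0.045 to 0.011 for *rack-1*, −0.027 to 0.087 for *rpl-3*, −0.99 to 0.013 for *rpl-37*, −0.073 to 0.042 for *rpl-4*, −0.060 to 0.014 for *rpl-5*, −0.056 to 0.051 for *rpl-7A*, −0.034 to 0.048 for *rps-2* and −0.072 to 0.015 for *rps-6*. Beyond what the construction of each alternative shows, the cause was not tested.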
